A study of Mus musculus with 29 samples.

Results

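The 9 genes described here, *Cux1*, *Cux2*, *Pou3f2*, *Pou3f3*, *Rorb*, *Mef2c*, *Bhlhe22*, *Neurod2* and *Neurod6*, are transcription factor genes of upper-layer and callosal projection neurons of the mouse cortex. They were taken as a named list, 9 of the 50233 gene IDs present in either count table, and not by their measured values. Their RNA was read in 19 RNA-seq libraries of 5 groups, and H3K27me3 peaks at them were read in 8 ChIP-seq libraries. All samples were embryonic cortex of C57BL/6J mice at E17.5.

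Among the libraries of the untreated experiment, 4 carry the letter C and 3 the letter M in their names, and their deposited genotype reads BAF dcKO_hGFAP-Cre for both letters. The treated experiment has 4 wild type libraries with vehicle (WT vehicle), 4 BAF dcKO_hGFAP-Cre libraries with vehicle (dcKO vehicle) and 4 BAF dcKO_hGFAP-Cre libraries with Wnt inhibitor (dcKO WNTi). The H3K27me3 libraries carry the letters C (4) and K (4), again under a single deposited genotype. In dcKO_hGFAP-Cre embryos floxed *Smarcc1* (BAF155) and *Smarcc2* (BAF170), which code for scaffold subunits of the BAF chromatin remodelling complex, are recombined by Cre under the human GFAP promoter. Per the study's methods this Cre acts in progenitors of the medial pallium first and of the dorsal and lateral pallium later, so cells of the tissue outside this lineage keep both genes. The same methods name Cre-carrying animals heterozygous for both floxed genes as the controls, while the labels call the controls of the treated experiment wild type. The Wnt inhibitor, ICG-001, was injected into the pregnant mothers, and the inhibitor was given to dcKO embryos only, so its effect in wild type embryos was not measured here.

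Upper-layer neurons of the cortex are born late, from radial glia and intermediate progenitors, migrate past the deep layers and send many of their axons through the corpus callosum. *Cux1* and *Cux2* code for Cut-homeodomain factors that mark these neurons and shape their dendrites and synapses. *Pou3f2* and *Pou3f3* code for POU-domain factors that act together in the production and migration of upper-layer neurons, *Rorb* marks layer IV, and *Mef2c* codes for a MADS-box factor of neuronal maturation and synapse number. *Bhlhe22*, *Neurod2* and *Neurod6* code for basic helix-loop-helix factors of postmitotic projection neurons, whose products bind the E-box (CANNTG). H3K27me3 is the mark that Polycomb complexes place on the histones of silenced genes.

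The promoter sequences of *Neurod6* and *Pou3f3*, the members whose levels differed most between libraries with low and with undiminished *Smarcc1*, and of *Neurod2* and *Cux2*, whose start sites lie in H3K27me3 regions, are shown from RefSeq (GRCm38.p6). Each runs 5′ to 3′ on the strand of its gene, from 250 bases before to 50 bases after the start, with every CG dinucleotide in capitals. They lie at chr6:55681214-55681513 (minus strand, *Neurod6*), chr1:42695518-42695817 (plus strand, *Pou3f3*), chr11:98329596-98329895 (minus strand, *Neurod2*) and chr5:122049802-122050101 (minus strand, *Cux2*).
Neurod6: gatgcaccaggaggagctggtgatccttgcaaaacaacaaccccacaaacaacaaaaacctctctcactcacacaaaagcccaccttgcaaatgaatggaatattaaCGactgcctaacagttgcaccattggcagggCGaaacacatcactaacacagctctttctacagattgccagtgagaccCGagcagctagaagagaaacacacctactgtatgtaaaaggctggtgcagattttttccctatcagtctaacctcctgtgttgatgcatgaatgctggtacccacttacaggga
Pou3f3: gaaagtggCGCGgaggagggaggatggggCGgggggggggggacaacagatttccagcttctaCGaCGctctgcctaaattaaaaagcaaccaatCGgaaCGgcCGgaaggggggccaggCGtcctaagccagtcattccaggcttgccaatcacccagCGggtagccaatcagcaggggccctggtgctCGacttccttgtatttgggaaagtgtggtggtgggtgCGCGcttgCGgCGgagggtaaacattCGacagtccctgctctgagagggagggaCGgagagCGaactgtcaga
Neurod2: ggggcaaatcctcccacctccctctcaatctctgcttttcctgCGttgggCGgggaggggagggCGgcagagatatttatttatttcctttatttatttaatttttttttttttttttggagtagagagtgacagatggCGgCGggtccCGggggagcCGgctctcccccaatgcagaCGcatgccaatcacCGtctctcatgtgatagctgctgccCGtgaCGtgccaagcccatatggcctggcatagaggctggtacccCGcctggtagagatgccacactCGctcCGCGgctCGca
Cux2: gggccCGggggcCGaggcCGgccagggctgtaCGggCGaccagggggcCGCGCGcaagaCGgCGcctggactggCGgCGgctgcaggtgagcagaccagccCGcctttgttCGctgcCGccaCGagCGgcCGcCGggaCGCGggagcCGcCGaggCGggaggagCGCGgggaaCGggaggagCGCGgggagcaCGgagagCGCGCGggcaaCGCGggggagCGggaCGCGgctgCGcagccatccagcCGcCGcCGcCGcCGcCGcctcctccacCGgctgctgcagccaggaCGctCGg
The *Neurod6* promoter holds 3 CG dinucleotides and that of *Cux2* holds 48, while the median of the 32807 mouse promoters of the same length was 7. As many as 3 were found in 76.7% of all promoters, and as many as 48 in 1.22%. *Pou3f3* holds 18 and *Neurod2* 16, a number that 29.7% and 33.0% of promoters reach. The first listed promoters of *Cux1*, *Pou3f2* and *Rorb* hold 25, 24 and 20, and the 3 listed promoters of *Mef2c* hold 1, 10 and 4. The E-box, searched as CANNTG, which reads the same on both strands, occurs 3 times in the *Neurod2* promoter and 2 times in that of *Neurod6*, and 72.3% of all promoters hold at least 1. RefSeq promoters were matched for 8 of the 9 members, and *Bhlhe22* is named only. The POU, Cux and bHLH members lie on chromosomes 1 (*Pou3f3*), 3 (*Bhlhe22*), 4 (*Pou3f2*), 5 (*Cux1* and *Cux2*), 6 (*Neurod6*) and 11 (*Neurod2*), with *Mef2c* on 13 and *Rorb* on 19.

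Libraries held 11946658 to 28391046 counted reads in the untreated experiment and 12514443 to 26600594 in the treated one, and the lowest count of any member in any library was 427 reads, for *Rorb*. Levels are given as CPM, the number of reads of a gene scaled to a common library size with TMM factors. The tissue expressed the defining genes of cortex, with summed CPM of 9306 to 12941 for 10 pan-neuronal genes and 1060 to 1662 for 9 deep-layer genes. Because the tissue is a mixture, fewer cells of a type and less RNA per cell cannot be told apart.

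The targeted genes were read first. *Smarcc1* stood at 247, 264, 269 and 248 CPM in the 4 C libraries and at 245, 128 and 135 in M replicates 2, 3 and 4. It stood at 245, 266, 299 and 256 CPM in WT vehicle, at 136, 242, 133 and 138 in dcKO vehicle and at 214, 252, 139.8 and 173 in dcKO WNTi replicates 1 to 4. The libraries labelled M replicate 2 and dcKO vehicle replicate 2 sat just under the lowest control of their experiment, at 95.4% and 91.1% of the control mean, where the other M and dcKO vehicle libraries lay between 49.8% and 52.6%. *Smarcc2* separated the same libraries, with 98.3% and 94.6%, inside the control range, in these and 58.1% to 60% in the others. The libraries labelled dcKO WNTi replicate 1 (80.5% and 88.1%) and replicate 2 (94.6% and 95%) also kept both genes at 80% of the control mean or more, replicate 4 stood at 65.1% and 80.1%, and only replicate 3 (52.5% and 56.8%) was as low as most dcKO vehicle libraries. The 80% limit was chosen after these values were seen. The comparisons below are given with all libraries as labelled, and the fold changes they turn on again without those against their label.

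**Figure D1:**
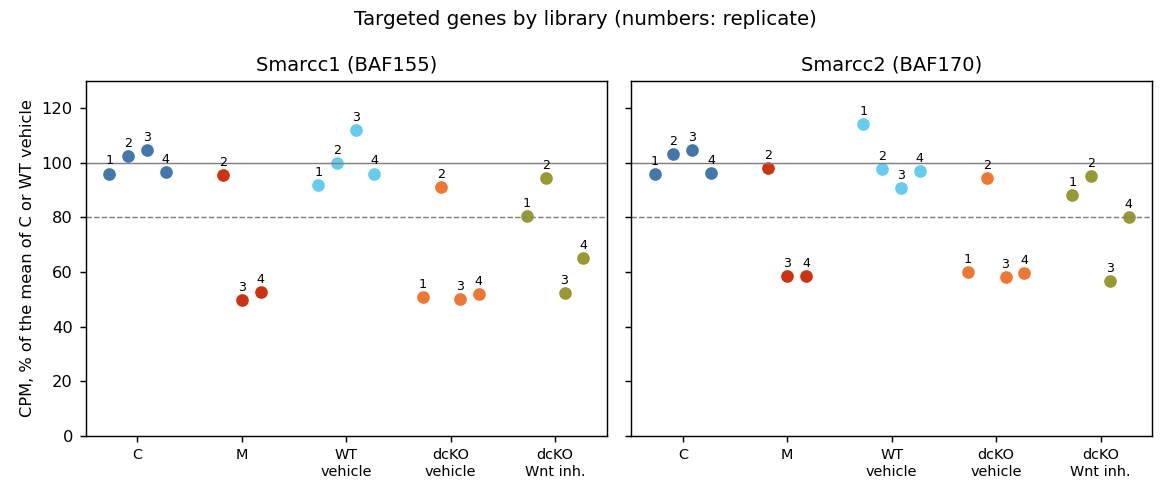
*Smarcc1* (left) and *Smarcc2* (right) in each RNA-seq library, as the percentage of the mean CPM of the C or WT vehicle libraries of the same experiment (y axis), with the group on the x axis and the replicate number above each point. The solid line marks 100% and the dashed line 80%; the libraries labelled M 2, dcKO vehicle 2 and dcKO WNTi 1 and 2 lie above the dashed line for both genes.

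A further property of the libraries bears on how the experiments can be set side by side. Deviations from the group mean over 10253 genes correlated between untreated and vehicle libraries of the same number, with r from 0.76 to 0.92 for M and dcKO vehicle and from 0.21 to 0.67 for C and WT vehicle. Between libraries of different numbers r ran from −0.81 to 0.61 and from −0.55 to 0.34. These are descriptions across genes, which are not independent replicates. Whether same-numbered libraries of the 2 experiments share an embryo or a litter is not given in the labels, so the treated experiment is not read as a repeat of the untreated one.

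Per kilobase of exon, the members kept nearly the same order in all 5 groups. *Neurod6* was highest, with a mean of 329 CPM per kb in WT vehicle, followed by *Neurod2* with 158, *Bhlhe22* with 94.9 and *Pou3f3* with 66.8. *Mef2c* and *Pou3f2* came next at 34.9 and 33.6 CPM per kb, and *Cux2* (22.0), *Cux1* (10.4) and *Rorb* (2.86) were lowest in each group. The library ranges of *Cux2*, *Cux1* and *Rorb* were apart in every group. Those of *Mef2c* and *Pou3f2* overlapped in every group, those of *Bhlhe22* and *Pou3f3* overlapped in WT vehicle and dcKO vehicle, and *Neurod6* and *Neurod2* overlapped in dcKO vehicle only.

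*Cux1* and *Cux2* were the steadiest members across the groups. *Cux1* was read at 154, 169, 187 and 155 CPM in C and at 164, 159.7 and 168 in M. In the treated experiment it was read at 211, 196, 228 and 195 CPM in WT vehicle, 209, 204, 198 and 209 in dcKO vehicle and 199.6, 216, 191 and 208 in dcKO WNTi. All its groups overlap. The M and dcKO vehicle libraries with low *Smarcc1* lay inside the control range, and dcKO WNTi replicate 3 (191 CPM) lay just under the lowest WT library (195 CPM). Its log2 fold change was −0.02 (SE 0.07, 95% interval from the SE −0.17 to 0.12) in M against C and −0.02 (SE 0.08, −0.17 to 0.14) in dcKO vehicle against WT vehicle. *Cux2* gave −0.02 (SE 0.09, −0.20 to 0.15) and 0.02 (SE 0.08, −0.13 to 0.18). Without the library labelled M replicate 2 or dcKO vehicle replicate 2, *Cux1* gave −0.02 and −0.01 and *Cux2* −0.07 and −0.01, none of them called. The largest decrease inside the intervals with all libraries was 0.20 on the log2 scale, for *Cux2* in M against C. Without the library labelled M replicate 2 the interval of *Cux2* reached a decrease of 0.26 there.

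*Cux2* was the only member whose groups did not overlap in a comparison with all libraries. It was read at 220.2, 240.1, 219 and 222 CPM in dcKO vehicle and at 215, 211, 205 and 213 in dcKO WNTi, so every inhibitor library was below every vehicle library, while WT vehicle ranged over both at 203 to 245. The difference was −0.10 on the log2 scale (SE 0.08, adjusted p = 0.577 by edgeR's quasi-likelihood test) and was not called. Groups that do not overlap were found for 8.51% of all genes in this comparison. They were found for 13.2% in M against C, 5.66% in dcKO vehicle against WT vehicle and 7.49% in dcKO WNTi against WT vehicle, and for none of the 9 members there.

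The POU genes differed from each other. *Pou3f3* was read at 283, 254, 325 and 285 CPM in C, and at 358, 200.4 and 209 in M replicates 2, 3 and 4. In the treated experiment it was read at 461, 466, 561 and 491 CPM in WT vehicle, 297, 573, 341 and 373 in dcKO vehicle and 437, 459, 473 and 461 in dcKO WNTi. The M and dcKO vehicle libraries with low *Smarcc1* were all below the lowest control of their experiment, and the libraries labelled M replicate 2 and dcKO vehicle replicate 2 were above the highest. With all libraries the log2 fold change of *Pou3f3* was −0.17 (SE 0.21, adjusted p = 0.737) in M against C and −0.32 (SE 0.16, adjusted p = 0.574) in dcKO vehicle against WT vehicle, and neither was called by edgeR. Without these libraries it fell by 0.49 (SE 0.09, adjusted p = 0.0060) and by 0.56 (SE 0.11, adjusted p = 0.0138) on the log2 scale, which is 28.7% and 32% lower.

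*Pou3f2*, its close relative, had a spread within its control groups wider than the difference of the group means. It ranged over 163 to 262 CPM in C and 173 to 284 in M. In the treated experiment it ranged over 113 to 279.5 CPM in WT vehicle, 112 to 215 in dcKO vehicle and 125 to 193 in dcKO WNTi, and all groups overlap. Its log2 fold change was −0.05 (SE 0.21) in M against C and −0.18 (SE 0.25) in dcKO vehicle against WT vehicle. Without the libraries labelled M replicate 2 and dcKO vehicle replicate 2 it was −0.30 (adjusted p = 0.286) and −0.34 (adjusted p = 0.685), not past the threshold.

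**Figure D2:**
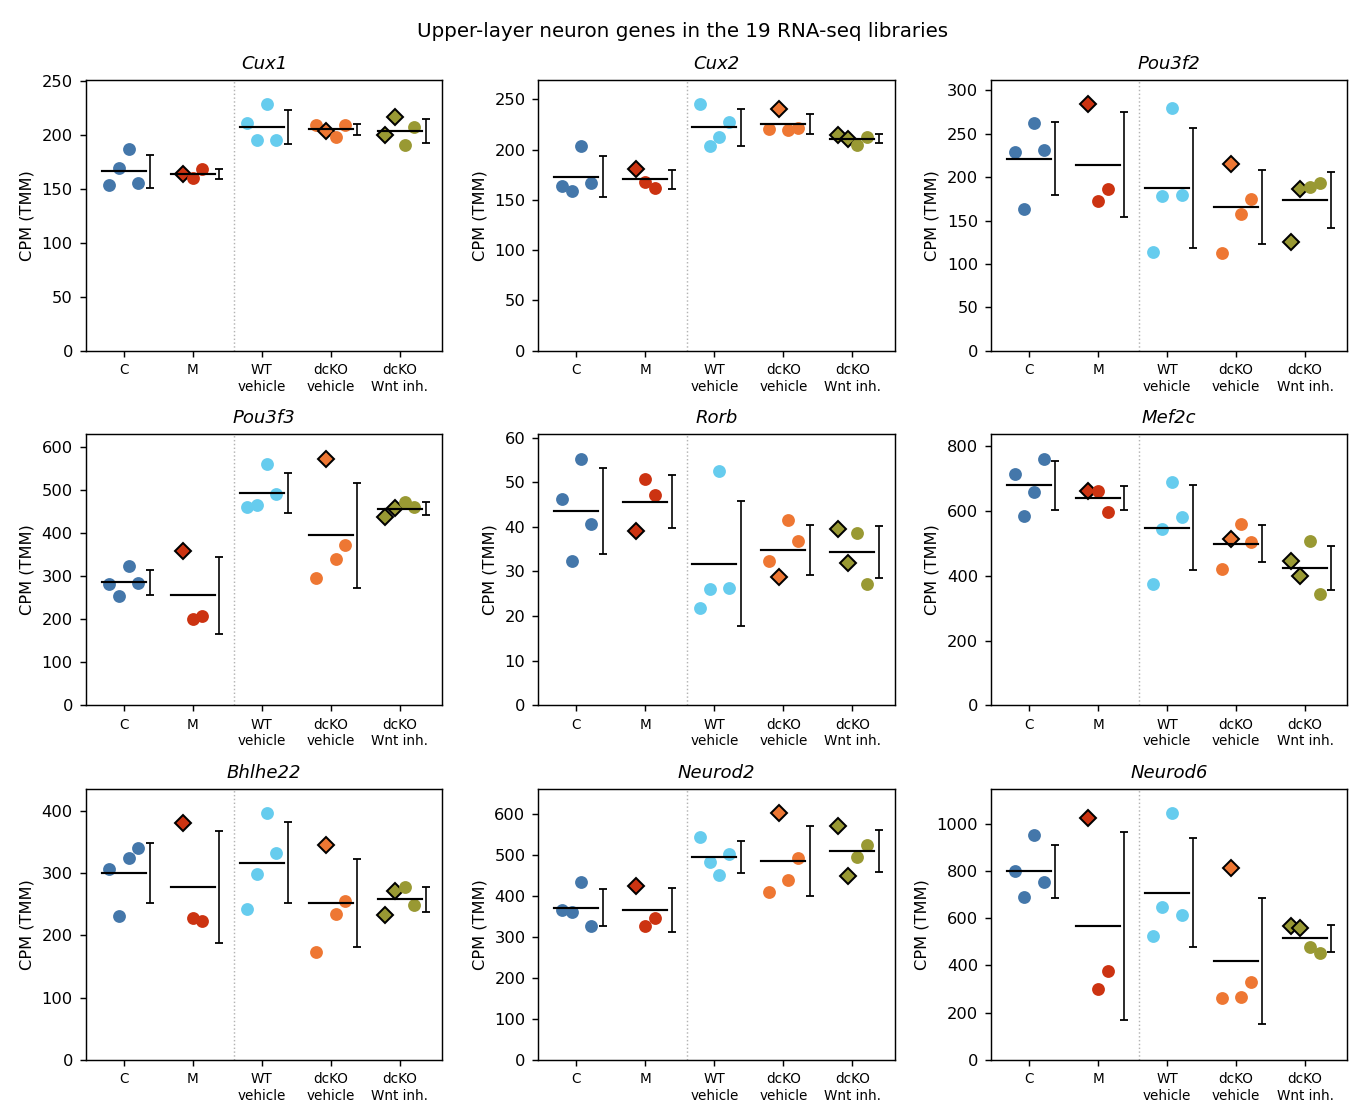
CPM after TMM scaling (y axis, from 0) of each of the 9 members in each RNA-seq library, by group (x axis); the horizontal line is the group mean and the bar beside it ± 1 SD (n = 4, or n = 3 for M). Diamonds with a black edge are the libraries labelled M 2, dcKO vehicle 2 and dcKO WNTi 1 and 2, which keep both targeted genes at 80% of the control mean or more; in *Neurod6* and *Pou3f3* the M 2 and dcKO vehicle 2 diamonds stand far above the other libraries of their groups. The dotted line parts the 2 experiments, which were scaled separately.

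*Neurod6* had the widest differences of all members. It was read at 799, 691, 950.3 and 752 CPM in C, and at 1025, 299 and 378 in M replicates 2, 3 and 4. The 2 low M libraries were below every C library, and the library labelled M replicate 2 was above every one. In WT vehicle it was read at 525, 646, 1044 and 612 CPM, in dcKO vehicle at 261, 813, 266 and 330.0 and in dcKO WNTi at 567, 556, 478 and 453. Of the dcKO vehicle libraries, 1, 3 and 4 were below every WT library, and replicate 2 was second only to WT vehicle replicate 3. The dcKO WNTi libraries were all above the 3 low dcKO vehicle libraries. Replicates 1 and 2 (567 and 556 CPM), with *Smarcc1* at 214 and 252 CPM, were above the lowest WT library (525 CPM). Replicates 3 and 4 (478 and 453 CPM), with lower *Smarcc1* at 139.8 and 173 CPM, were below every WT library. Replicate 3, with the lowest *Smarcc1* of the 4 dcKO WNTi libraries, was within the range of the others of its group.

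With all libraries as labelled, *Neurod6* had a log2 fold change of −0.50 (SE 0.42, adjusted p = 0.620) in M against C and −0.76 (SE 0.33, adjusted p = 0.472) in dcKO vehicle against WT vehicle, by edgeR's quasi-likelihood test. Without the library labelled M replicate 2 it fell by 1.24 (SE 0.14, adjusted p = 0.0006), which is 57.6% lower. It fell by 1.31 (SE 0.21, adjusted p = 0.0063), which is 59.6% lower, when the library labelled dcKO vehicle replicate 2 was left out. The means without these libraries were 338 ± 55.9 CPM (SD, n = 2) in M against 798 ± 111 (n = 4) in C, and 286 ± 38.5 (n = 3) in dcKO vehicle against 707 ± 230.5 (n = 4) in WT vehicle.

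*Bhlhe22*, a factor of postmitotic projection neurons and their callosal and corticospinal axons, followed the same libraries with a smaller difference. It was read at 307, 231, 324 and 341 CPM in C and at 381, 229 and 223 in M. In the treated experiment it was read at 242, 298, 396 and 332 CPM in WT vehicle, 174, 345, 234 and 256 in dcKO vehicle and 233, 272, 277 and 249 in dcKO WNTi. M replicates 3 and 4 lie just below the lowest C library, while dcKO vehicle replicate 4 lies inside the WT range. The log2 fold changes were −0.12 (SE 0.22) and −0.33 (SE 0.18) with all libraries, and −0.41 (adjusted p = 0.084) and −0.52 (adjusted p = 0.120) without the libraries labelled M replicate 2 and dcKO vehicle replicate 2. None of these passed the threshold.

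*Neurod2*, a neuronal differentiation factor that acts on synapses of projection neurons, differed along the same libraries by less. It was read at 365, 360.1, 434 and 327 CPM in C and at 426, 326 and 347 in M replicates 2, 3 and 4. In the treated experiment it was read at 545, 483, 453 and 503 CPM in WT vehicle, 411, 602, 438 and 492 in dcKO vehicle and 572, 449, 495 and 525 in dcKO WNTi. The library labelled dcKO vehicle replicate 2 was above every WT library and dcKO vehicle replicates 1 and 3 were below every one, while M replicate 2 was inside the C range and M replicate 3 just under it. All groups overlap. Its log2 fold change was −0.02 (SE 0.11) in M against C and −0.03 (SE 0.12) in dcKO vehicle against WT vehicle, and −0.15 in both without the libraries against their label (adjusted p = 0.404 and 0.658).

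*Rorb* and *Mef2c* showed no called difference either. *Rorb*, the lowest member, ranged over 32.3 to 55.3 CPM in C and 39.1 to 50.7 in M. In the treated experiment it stood at 21.8, 26.1, 52.5 and 26.3 CPM in WT vehicle, 28.7 to 41.6 in dcKO vehicle and 27.2 to 39.6 in dcKO WNTi, with WT vehicle replicate 3 well above the other WT libraries. Its log2 fold change was the only positive one in M against C (0.07, SE 0.17) and was 0.15 (SE 0.24) in dcKO vehicle against WT vehicle. It was 0.16 and 0.23 without the library labelled M replicate 2 or dcKO vehicle replicate 2. *Mef2c* ranged over 585 to 762 CPM in C and 598 to 664 in M, with a log2 fold change of −0.09 (SE 0.09). It was read at 374, 545, 691 and 583 CPM in WT vehicle, 422, 515, 559 and 504 in dcKO vehicle and 445, 401, 507 and 344 in dcKO WNTi. Its inhibitor libraries were low as a group, although WT vehicle replicate 1 was lower than 3 of them. In dcKO vehicle against WT vehicle its log2 fold change was −0.13 (SE 0.17), and without the library labelled M replicate 2 or dcKO vehicle replicate 2 the 2 knockout comparisons gave −0.11 and −0.15. Against WT vehicle the log2 fold change of dcKO WNTi was −0.37 (SE 0.17, adjusted p = 0.246), the only member at an unadjusted p under 0.05 there, and without the libraries against their label it was −0.37 (adjusted p = 0.365). Over 10302 genes of the treated experiment, long genes relative to short ones were lowest in dcKO WNTi replicates 1 and 3. They were highest in WT vehicle replicate 3. The part of this in *Mef2c* (15715 bp of exon), *Rorb* (11076 bp) and *Neurod6* (2150 bp) was not tested.

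Counted over the list, none of the 9 members was called in any comparison with all libraries by edgeR at an adjusted p under 0.05, and DESeq2 called none either in the 4 comparisons of groups. In M against C, 8 of 9 had a negative log2 fold change (median −0.05, against 0.00 over 15770 genes), 0 of 9 were called where 0.00634% of all genes were, and 0 had an unadjusted p under 0.05 where 16% of all genes did. In dcKO vehicle against WT vehicle, 7 of 9 were negative (median −0.13, against 0.00 over 16372 genes), 0 were called where 0.00611% were, and 1, *Neurod6*, had an unadjusted p under 0.05 where 9.46% did. Without the library labelled M replicate 2, 2 of 9 members fell (*Neurod6* and *Pou3f3*), which is to be set against 6.88% of all 16024 genes called lower. Without the library labelled dcKO vehicle replicate 2, the same genes, 2 of 9, fell, and 2.06% of all 16526 genes were called lower.

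The knockout effect was also compared between the experiments as a difference of differences over all 19 libraries. For the members this difference ran from −0.08 (*Rorb*) to 0.26 (*Neurod6*, SE 0.53) on the log2 scale, 0 of 9 were called where 0.0% of 16156 genes were, and 0 had an unadjusted p under 0.05 where 0.501% did. The 95% interval for *Neurod6*, −0.78 to 1.29, is wide in this fit, which takes the libraries as unrelated. It rests on single libraries, since the difference for *Neurod6* was −0.48 (SE 0.46) without the library labelled M replicate 2, 0.80 (SE 0.43) without that labelled dcKO vehicle replicate 2, and 0.07 (SE 0.28) without both. With same-numbered untreated and vehicle libraries as a block, a fit added because they deviate together, the difference was 0.01 (SE 0.17) for *Neurod6* and 0.02 (SE 0.08) for *Pou3f3*. The median of the members was then −0.06 against 0.04 without the block, 0 of 9 were called, and 162 genes against 81 had an unadjusted p under 0.05.

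**Figure D3:**
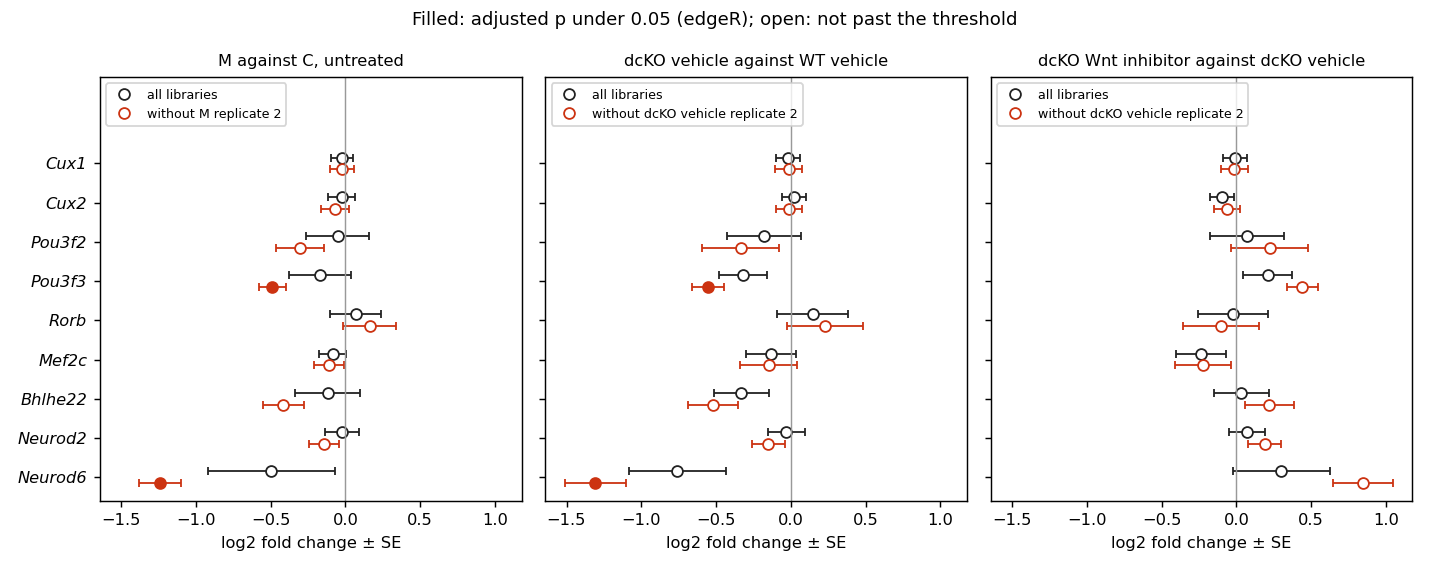
Log2 fold change of each member (x axis, bars ± 1 SE of the edgeR fit) in M against C, in dcKO vehicle against WT vehicle and in dcKO WNTi against dcKO vehicle, with all libraries (black) and without the library labelled M 2 or dcKO vehicle 2 (red). Filled points have an adjusted p under 0.05: only *Neurod6* and *Pou3f3* are filled, in the first and second panels, and only without these libraries. *Cux1* and *Cux2* lie near 0 in all panels.

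The comparison of dcKO WNTi with dcKO vehicle asks whether the inhibitor changed the level of these genes in dcKO cortex. With all libraries, 4 of 9 members were negative (median 0.03), 0 were called where 0.055% of all genes were, and 0 had an unadjusted p under 0.05 where 15.8% of all genes did. The largest differences were 0.30 (SE 0.32) for *Neurod6*, −0.24 (SE 0.17) for *Mef2c* and 0.21 (SE 0.16) for *Pou3f3*. Those of *Pou3f2* and *Neurod2* were 0.07, that of *Bhlhe22* was 0.03, and those of *Cux1* and *Rorb* were −0.01 and −0.02. Without the library labelled dcKO vehicle replicate 2, *Neurod6* was 0.85 higher (SE 0.20, adjusted p = 0.0613) and *Pou3f3* 0.44 higher (SE 0.11, adjusted p = 0.0613) in dcKO WNTi, short of the threshold, where 1.09% of all genes were called. Without the libraries labelled dcKO WNTi replicates 1 and 2 as well, the differences were 0.71 (SE 0.24, adjusted p = 0.166) and 0.47 (SE 0.13, adjusted p = 0.0935), with 3 libraries against 2.

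In dcKO WNTi against WT vehicle 7 of 9 were negative (median −0.11), 0 were called where 0.0977% of all genes were, and 1, *Mef2c*, had an unadjusted p under 0.05 where 19.8% did. *Neurod6* had the lowest value, −0.46 (SE 0.32, adjusted p = 0.446 by edgeR), and *Bhlhe22* followed *Mef2c* with −0.30 (SE 0.18). *Pou3f3* and *Pou3f2* were both at −0.11, *Cux2* was at −0.07, *Cux1* at −0.03, *Neurod2* at 0.04 and *Rorb* at 0.12. Without the libraries against their label 6 of 9 were negative (median −0.08) and 0 were called where 7.38% of all genes were, with *Neurod6* at −0.60 (SE 0.24, adjusted p = 0.155). The treated comparisons share libraries, so they are not independent of each other.

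Marker genes of other cell types also differed between the libraries, several of them not along the labelled groups. The sum of 9 deep-layer neuron genes was low in the same libraries as *Neurod6* and *Pou3f3*, with 1206 and 1267 CPM in M replicates 3 and 4 against 1354 to 1627 in C, and 1060, 1169 and 1257 in dcKO vehicle replicates 1, 3 and 4 against 1303 to 1662 in WT vehicle. It was 1660 in the library labelled M replicate 2 and 1555 in that labelled dcKO vehicle replicate 2. Deep-layer genes thus differed along the same libraries as these members. The sum of 6 intermediate progenitor genes was also highest in these libraries, at 419 and 426 CPM, against 249 to 374 in C and 280 to 373 in WT vehicle. The summed CPM of 6 striatal genes was 153 and 158 in M replicates 4 and 3 and 183 to 191 in dcKO vehicle replicates 1, 3 and 4, against 66.9 to 92.4 in C and 79.0 to 107 in WT vehicle. It was 59.6 in the library labelled M replicate 2 and 68.6 in that labelled dcKO vehicle replicate 2. Thus the libraries with low *Neurod6* and *Pou3f3* had high striatal sums, but the sum does not show that all 6 genes were higher. With all libraries as labelled, 4 of the 6 striatal genes were negative in M against C (log2 fold changes −0.60 to 1.53). In dcKO vehicle against WT vehicle 3 of the 6 were negative (−0.84 to 1.54). Interneuron genes (8) moved the same way, with 795 to 870 in M replicates 3 and 4 and 882 to 939 in dcKO vehicle replicates 1, 3 and 4, against 616 to 707 in C and 613 to 797 in WT vehicle. The sum of 10 pan-neuronal genes was 10886 to 11394 in the 3 M libraries against 12047 to 12941 in C, and 10137 to 10946 in dcKO vehicle against 11245 to 12492 in WT vehicle. The part of these differences in the members' levels was not tested.

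In dcKO WNTi the striatal sum was 138 to 210.2, and choroid plexus genes (5) summed to 845, 162, 484 and 10.7 CPM in replicates 1 to 4, against 6.5 to 10.2 in dcKO vehicle and 6.0 to 127 in WT vehicle. *Ttr*, the defining choroid plexus gene, stood at 803, 147, 448 and 4.03 CPM there. The 8 radial glia genes summed to 1440 to 1771 in dcKO WNTi and to 1344 to 1475 in dcKO vehicle. *Neurod6* lay between 453 and 567 CPM in all 4 inhibitor libraries, including replicate 4, where choroid plexus genes were as low as in dcKO vehicle. The part of this tissue in the inhibitor comparison was not tested further.

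A further 22 genes of upper-layer and callosal neurons were read beside the members. With all libraries none of the 22 was called by edgeR in any comparison, while DESeq2 called 2 lower and 1 higher in M against C and 1 lower in dcKO WNTi against WT vehicle, where it called 2.03% and 2.31% of the genes it tested in either direction. In dcKO vehicle against WT vehicle 17 of 22 were negative (median −0.23), where 50.7% of all genes were. An unadjusted p under 0.05 was found there for 5 of 22 and for 9.46% of all genes. In M against C 16 of 22 were negative (median −0.23), where 49.0% of all genes were. There 9 of 22 had an unadjusted p under 0.05, where 16% of all genes did.

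Among the genes of this list with the smallest p-values in dcKO vehicle against WT vehicle were *Lmo4* (−0.51), *Dkk3* (−0.61), *Gfra2* (−0.43), *Unc5d* (−0.43) and *Tmtc4* (0.40), all on the log2 scale, with adjusted p from 0.281 to 0.533 by edgeR. *Lmo4* codes for a LIM-only cofactor, *Dkk3* for a secreted Dickkopf protein, *Gfra2* for a neurturin receptor subunit and *Unc5d* for a netrin receptor of migrating upper-layer neurons. When the library labelled dcKO vehicle replicate 2 was left out, 4 of the 22 fell, among them *Lhx2* by 0.89, *Dkk3* by 0.85 and *Lmo4* by 0.70, and none rose, where 2.06% of all genes were called lower and 1.34% higher. Without the library labelled M replicate 2, 11 of the 22 fell and 3 rose, where 6.88% of all genes were called lower and 5.57% higher. *Lmo4* was the one of these that stood out in dcKO WNTi, at 183, 177, 181 and 172 CPM against 103, 174, 109 and 127 in dcKO vehicle and 197, 183, 156 and 195 in WT vehicle. With all libraries its difference from dcKO vehicle was 0.47 (SE 0.14, adjusted p = 0.190 by edgeR), which did not pass the threshold. Without the library labelled dcKO vehicle replicate 2, 3 of the 22 were called higher in dcKO WNTi and 0 lower, where 1.09% of all genes were called. Without dcKO WNTi replicates 1 and 2 as well, 2 of the 22 were called higher and 0 lower, where 51 and 121 of 16815 genes were.

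Among themselves the members fell into those that varied together over the libraries and those that did not. Over the 12 treated libraries Pearson's r of log2 CPM was 0.94 for *Pou3f3* and *Neurod6*, 0.87 for *Pou3f3* and *Bhlhe22*, 0.85 for *Bhlhe22* and *Neurod6* and 0.85 for *Pou3f2* and *Bhlhe22*. The same pairs had r of 0.96, 0.92, 0.83 and 0.95 over the 7 untreated libraries. *Cux2* and *Rorb* were at the other end with −0.46 over the treated and 0.54 over the untreated libraries. The points share their library, tissue piece and depth, and group differences are part of these values. The genes most like the mean of the members over the treated libraries, of 10306 genes with a mean of at least 10 CPM, were *Lix1* (r = 0.94), *Cyp20a1* (0.91), *Emx2* (0.91), *Ahsa2* (0.90) and *Dpy19l1* (0.90), and over the 7 untreated libraries their r was 0.85, 0.82, 0.69, 0.72 and 0.87.

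H3K27me3 was read as peaks, called in each library by the authors, with the fold enrichment over input of each. The labels name the mark as H3K27me3, but the antibody's catalogue number beside it is, as far as known, sold for another histone mark, so the peaks were checked at genes known to carry or to lack H3K27me3. *Hox* genes, which carry this mark in cortex, had 34 to 39 of 39 starts under a peak in 6 libraries, but 13 and 6 in C replicate 3 and K replicate 2, while 0 of 10 housekeeping gene starts lay under a peak in any library. Tags left after duplicate removal ranged from 2420911 in C replicate 3 to 28335352, with 3386488 in K replicate 2. Peak number ranged from 6674 to 46000, and K replicate 4 had the most and covered 58.6 Mb in all, against 6.0 to 29.5 Mb in the other libraries. The absence of a peak in a shallow library does not show that the mark is absent. Merged over libraries and kept with a peak in at least 2, the lists gave 22220 regions, 9 of which lie at members. Coordinates are of mm10.

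*Neurod2* was the member most widely covered within 10 kb of the start, except in C replicate 3 and K replicate 2. Its merged region, chr11:98312711-98330714, is 18004 bp long and holds the whole gene (chr11:98325415-98329648, minus strand). It had a peak in all 8 libraries, but the length under peaks ran from 409 bp in C replicate 3 to 17539 bp in K replicate 4. The highest fold enrichment was 7.17, 4.08, 10.3 and 3.78 in C and 10, 9.28, 4.23 and 5.90 in K, with the groups overlapping. The log2 difference was 0.26 (SE 0.63, adjusted p = 1.0 by limma). A peak lay over the start position itself in 1 library only, and per kilobase *Neurod2* RNA was second to that of *Neurod6*.

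*Cux1*, *Bhlhe22* and *Cux2* had a merged region over the start, with peaks in it in 7, 7 and 6 of the 8 libraries, but a peak covered the start position itself in 3, 3 and 2 libraries only. At *Cux1* (chr5:136565300-136572119, 6820 bp) peaks reached 6.96, 4.18, 4.32 and 4.12 in C and 7.88, 4.20 and 6.82 in K replicates 1, 3 and 4, with none in K replicate 2. At *Bhlhe22* (chr3:18050163-18056179, 6017 bp) they reached 7.52, 4.12, 5.74 and 3.94 in C and 10.7, 4.26 and 5.56 in the same K libraries. At *Cux2* (chr5:122047380-122050633, 3254 bp, which also holds the start of *Gm15637* and the printed promoter) they reached 8.26, 3.57, 5.38 and 3.59 in C and 8.40 and 3.86 in K replicates 1 and 4. Where both letters had a peak their ranges overlap. With a library without a peak set to a log2 of 0, the differences were −0.30 (SE 0.77) for *Cux1*, −0.37 (SE 0.75) for *Bhlhe22* and −1.03 (SE 0.87) for *Cux2*, all at an adjusted p of 1.0 by limma. These signs rest on the K libraries without a peak in the region. Outside the *Cux1* region, but within 10 kb of the start, K replicate 2 had a peak of 4.35-fold enrichment. Where there was a peak, the mean enrichment was 4.89 in C and 6.30 in K for *Cux1*, 5.33 and 6.83 for *Bhlhe22* and 5.20 and 6.13 for *Cux2*. Without the shallow K replicate 2 the differences were 0.35 (SE 0.64), 0.30 (SE 0.62) and −0.62 (SE 0.75), none of them called.

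The POU genes and *Rorb* had no kept region over the start. Their longest kept regions had peaks in 6 libraries at *Pou3f2* and in 3 each at *Pou3f3* and *Rorb*. Within 10 kb of its start *Pou3f2* had a peak in every library. A region upstream of *Pou3f2* (chr4:22489339-22492267, 2929 bp), which holds the start of *Gm30731*, had peaks in 3 C and 3 K libraries, with 6.04, 3.41 and 6.55 in C and 11.3, 11 and 4.38 in K (log2 difference 0.50, SE 0.80). The region inside *Pou3f3* (chr1:42696640-42698684, 2045 bp) had a peak of 5.48 in C replicate 1 and of 3.76 and 5.70 in K replicates 1 and 4 (0.49, SE 0.87). The region inside *Rorb* (chr19:19107943-19110105, 2163 bp) had one of 3.35 in C and of 3.39 and 3.49 in K (0.45, SE 0.80). None of the members was called, and 0.221% of all regions had an unadjusted p under 0.05, with 0.0% at an adjusted p under 0.05. The members at an unadjusted p under 0.05 numbered 0.

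*Neurod6*, the member with the largest RNA difference, had no H3K27me3 region over its body or start, and within 10 kb of the start it had a single peak, of 3.5-fold enrichment, in K replicate 4. *Mef2c* had none in any library. Short kept regions inside *Cux1* (chr5:136249737-136250040) and inside *Pou3f2* (chr4:22487374-22487729) had a peak in C replicate 1 and K replicate 4 only. Their log2 differences were −0.02 (SE 0.67) and 0.08 (SE 0.65), not called. The regions at members that were not kept were found in 1 library each. Among them were 12 of the 15 regions of *Cux2*, all in K replicate 4, the library with the largest covered length. Over all 21951 protein-coding genes 0.86% to 20.9% of starts lay under a peak per library, and 0 to 4 of the 9 members' starts did.

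**Figure D4:**
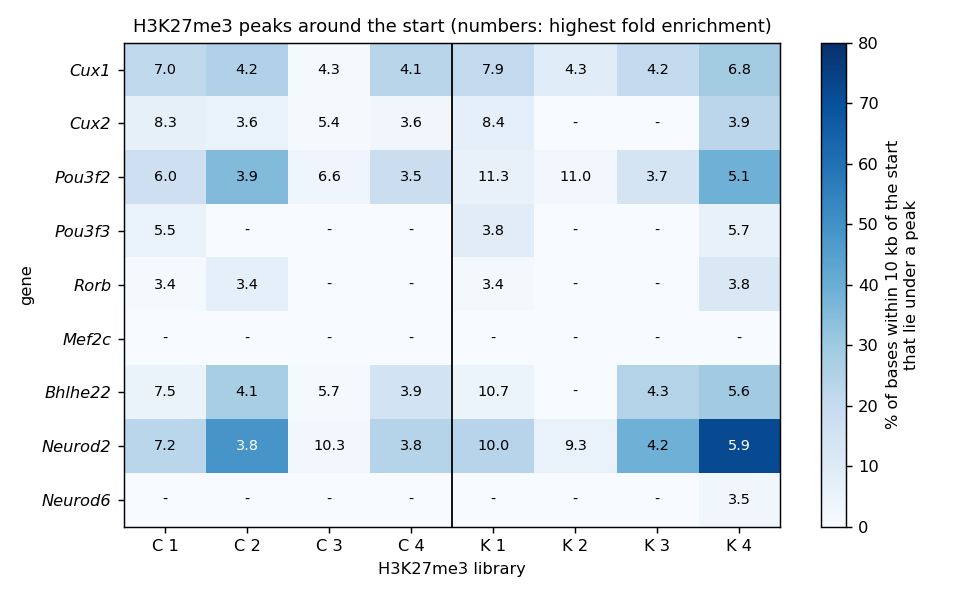
H3K27me3 around the start of each member (rows) in each ChIP-seq library (columns, C 1 to 4 and K 1 to 4): the shade is the percentage of bases within 10 kb on either side of the start that lie under a peak, and the number is the highest fold enrichment of a peak there, with a dash where there is none. *Neurod2* is covered in all libraries and most in K 4, *Mef2c* in none and *Neurod6* in K 4 only. The limma test was run on the highest fold enrichment in merged regions, not on the values shown here, and it called no region of a member. *Neurod6* and *Mef2c* had no region to test.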

How the data were processed

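RNA-seq of 19 libraries and H3K27me3 ChIP-seq of 8 libraries were read as deposited. RNA-seq reads were aligned by STAR to the mm10 build, and the authors deposited the read count of each Ensembl gene as featureCounts wrote it. The gene annotation is not given in the sources used here, and the untreated and treated tables list different genes (38355 and 48709 IDs, 36831 shared). The kit does not mark strand, so reads of *Cux1* and of its antisense neighbour *Gm16599* cannot be told apart over 394 bp of shared exon. Per the file headers, the authors ran MACS2 2.1.0.20140616 on each H3K27me3 library in broad mode (q up to 0.1), with duplicate tags removed and the input of the same letter as background. The deposited lists give per peak the fold enrichment over input (a ratio), the pileup, which is a signal height in tags, and the −log10 p-value and q-value, all written by the authors' MACS2 run.

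Groups came from the sample names and labels. The edgeR package 4.0.16 (R 4.3.3) was used for counts (TMM, filterByExpr, robust quasi-likelihood test), with the 7 untreated libraries fitted alone and the 12 treated ones together, with Benjamini-Hochberg adjustment over all genes tested and calls at an adjusted p under 0.05. The knockout effect was compared between experiments in a fit of all 19. Peaks that overlap by 1 bp were merged across libraries, regions seen in 2 or more libraries were kept, and the log2 of the highest fold enrichment, 0 where a library had no peak, was tested with limma 3.58.1. Regions were given to a member where they overlap its body or lie within 2000 bp of a start in GENCODE M21, whose build GRCm38 is mm10. Likeness of genes was taken on log2 CPM with a prior count of 2. Fits were tested on simulated data. Alternatives were RLE factors, no filter, DESeq2 1.42.0 with a prior, the replicate block, only the 2 groups compared and single libraries left out, and for peaks a q under 0.01, 3 or more libraries, peaks over 0.5 or more of a region, pileup, centring and regions near a start. Fits without libraries against their label were added after the data were seen.

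All 9 members were tested in every RNA comparison. Of the other upper-layer genes those with the smallest p in dcKO vehicle against WT vehicle are named, and of all genes the 5 most alike. For 1 gene of that list, which enters its counts, values are not reported here. The members and lists were chosen with earlier results of these data known. The labels do not tie libraries to separate embryos or litters, so p-values measure only the spread between these libraries. The 2 inputs were used by the authors in peak calling only.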

Additional observations from a re-analysis of the deposited data

Results flagged for a closer look

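The 6 values in this paragraph each stood apart from the 3 other libraries of their group, with a gap to the nearest of them larger than Dixon's 95% limit (0.829 of the group's range for 4 samples). In all 44 groups of 4 libraries were read this way, and chance marks about 1 in 20. The library labelled dcKO vehicle replicate 2 gave 4 of the 6, with *Smarcc1* at 242.5 CPM, *Smarcc2* at 691.8 CPM, *Neurod6* at 813.1 CPM and *Cux2* at 240.1 CPM, each the highest of its group. Both targeted genes thus lay within the range of the WT libraries or close to it in a library labelled dcKO. *Rorb* stood at 52.5 CPM in WT vehicle replicate 3, above the other WT libraries. *Pou3f2* stood at 125.5 CPM in the library labelled dcKO WNTi replicate 1, below the other inhibitor libraries. M was not read this way, with only 3 libraries.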

How the results depend on the processing

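The number of members called was 0 in each comparison under DESeq2 size factors (RLE), no filter on low counts, DESeq2 with a prior, the replicate block and, for the treated libraries, a fit of only the 2 groups compared. It was 2 in dcKO vehicle against WT vehicle without the libraries against their label, and it ranged from 0 to 2 over single libraries left out in M against C and in dcKO vehicle against WT vehicle, where leaving out the library labelled M replicate 2 or dcKO vehicle replicate 2 gave 2. In the other comparisons it stayed at 0 to 0.

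Counts over all genes depended far more on the setting. M against C gave 1 gene, and 154 with no filter, 530 by DESeq2, 0 with the replicate block and 0 to 1994 over libraries left out, the last without M replicate 2. dcKO vehicle against WT vehicle gave 1, and 0 with RLE, 0 with no filter, 109 by DESeq2, 5 with the block, 0 with only the 2 groups, 978 without the libraries against their label, and 0 to 562 over libraries left out, the last without dcKO vehicle replicate 2. dcKO WNTi against dcKO vehicle gave 9, and 20 with no filter, 333 by DESeq2, 172 without the libraries against their label and 0 to 420 over libraries left out. dcKO WNTi against WT vehicle gave 16, and 58, 723, 189 with the block, 8 with only the 2 groups, 1241 without the libraries against their label and 0 to 1453 over libraries left out. In both inhibitor comparisons the highest count came without dcKO WNTi replicate 2. The difference of differences gave 0 to 0 genes, and H3K27me3 0 to 1 regions, the 1 without C replicate 1. The cause was not tested.

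Small log2 fold changes of uncalled members changed sign. Without the libraries against their label *Cux2* was −0.0132 in dcKO vehicle against WT vehicle and *Pou3f2* 0.0280 in dcKO WNTi against WT vehicle. With a library counted as having a peak only where its peaks cover 0.5 or more of the region, *Pou3f3* was −0.1358, *Bhlhe22* 0.6304, *Pou3f2* −0.1158 and *Cux1* 0.2288. Over single libraries left out, values in M against C ran from −0.0571 to 0.0426 for *Cux1*, −0.0707 to 0.0656 for *Cux2*, −0.3039 to 0.0817 for *Pou3f2*, −0.0509 to 0.2070 for *Rorb*, −0.4144 to 0.0173 for *Bhlhe22* and −0.1454 to 0.0625 for *Neurod2*. In dcKO vehicle against WT vehicle they ran from −0.0421 to 0.0331 for *Cux1*, −0.0147 to 0.0723 for *Cux2*, −0.1507 to 0.0427 for *Neurod2* and −0.3584 to 0.0758 for *Pou3f2*. In dcKO WNTi against dcKO vehicle they ran from −0.0405 to 0.0192 for *Cux1*, −0.0772 to 0.2236 for *Pou3f2*, −0.1036 to 0.0766 for *Rorb*, −0.1113 to 0.2210 for *Bhlhe22* and −0.0027 to 0.1902 for *Neurod2*. In dcKO WNTi against WT vehicle they ran from −0.0589 to 0.0187 for *Cux1*, −0.2914 to 0.1427 for *Pou3f2*, −0.0195 to 0.4673 for *Rorb* and −0.0188 to 0.0963 for *Neurod2*. For H3K27me3 they ran from −0.8416 to 0.2977 for *Bhlhe22*, −0.6403 to 0.3522 for *Cux1* and −0.0865 to 1.2611 for *Pou3f2*. *Neurod6*, *Pou3f3* and *Mef2c* stayed negative in M against C and in dcKO vehicle against WT vehicle under every library left out. The values ran from −1.2394 to −0.1884 and −1.3072 to −0.5088 for *Neurod6*. For *Pou3f3* they ran from −0.4880 to −0.0202 and −0.5554 to −0.2049, and for *Mef2c* from −0.1513 to −0.0267 and −0.2775 to −0.0014. Some of these values were thus close to no difference.

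Replicate numbers are shared by the groups, but same-numbered libraries did not deviate together throughout an experiment. The correlation of their deviations averaged −0.14 (untreated), 0.09 (treated) and 0.08 (H3K27me3), so the numbers were not taken to pair the samples. Single pairs differed from these means. WT vehicle replicate 1 had r of 0.38 with dcKO vehicle replicate 1 and 0.40 with dcKO WNTi replicate 1. Treated pairs of different numbers ran from −0.37 to 0.24. For H3K27me3, C 1 and K 1 had r of 0.58, where pairs of different numbers ran from −0.50 to 0.51. The replicate block moved no call of a member.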
